A study of Arabidopsis with 26 samples.

Results

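SYD is an ATPase of the plant SWI/SNF chromatin remodelling complexes, and this comparison asked where SYD was found in Arabidopsis seedlings when BRM, another ATPase of the same family, was mutated. The data were 4 of the 26 peak lists of the series. Lines were read from the deposited file names: 2 lists were named SYD-N-GFP syd-5 (numbered 3 and 4, called the lists with BRM below) and 2 were named SYD-N-GFP syd-5 brm-1 (numbered 1 and 2, called the lists without BRM). In both lines a SYD fusion to green fluorescent protein (GFP) was expressed in plants carrying the syd-5 mutation, and the second line also carried brm-1. Seedlings were 14 days old, 1 g of pooled seedlings was used per library, and chromatin was precipitated with an antibody against GFP. The promoter of the transgene and the number of independent transgenic events are not given in the sources used here.

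SWI/SNF complexes use the energy of ATP to slide or evict nucleosomes, and each complex carries a single ATPase. In plants the ATPases include BRM, SYD and the MINU proteins. BRM and SYD act partly on the same developmental genes, among them genes of flowering and of auxin transport, and plants that lack both fail much earlier in development than plants lacking either alone.

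The records of these libraries conflict. The sample labels call the lists without BRM SYD-GFP syd-5 swi3d-1, whereas labels and file names of the lists with BRM name the same line. Over the series 19 of 26 lists have a label and a file name that state different lines. Where the peak names hold a line text, in 4 lists, it holds syd-5 as the file name does in 4 of 4 lists and as the label does in 0 of 4. Those texts also set apart a pair of lists, with 5227 and 4383 peaks, whose peak names and file names both mark the swi3d mutation. The 4 lists compared here hold no line text in their peak names, only the numbers 982 and 983 with BRM and 986 and 987 without. A peak lying 20% to 60% of the way along the SYD gene was found in 8 of 8 lists named for SYD-N-GFP and in 1 of 18 others, a feature chosen after its values were seen. No value in the lists shows directly that the plants of the second line lacked BRM, so every statement on BRM below holds only as far as the file names do.

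Without BRM, SYD was still found at most of its regions, but the peaks covered less of the genome. The lists with BRM held 16223 and 16082 peaks on the 5 nuclear chromosomes, and those without held 16139 and 14047. The ranges overlapped, and the log2 ratio of the means was -0.10 (exact permutation test, two-sided, p = 0.667). The peaks covered 14.2 and 13.6 Mb with BRM and 12.3 and 10.2 Mb without BRM, so the ranges of covered length did not overlap. The log2 ratio of 11.3 ± 1.52 Mb to 13.9 ± 0.416 Mb (SD, n = 2 each) was -0.30, with an exact two-sided permutation p of 0.333, the smallest that 2 lists against 2 can give. List 2 without BRM was the smallest, and leaving it out brought the log2 ratio of peak numbers to -0.0012 and that of covered length to -0.17, while leaving out list 1 gave -0.20 and -0.44.

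Lists of the same line were more alike than lists of different lines. The base-pair Jaccard index, the shared length divided by the joint length, was 0.727 between the lists with BRM and 0.681 between those without. Between lines it lay between 0.597 and 0.651. A further pair of lists named SYD-N-GFP syd-5 (numbered 1 and 2, labelled as other lines) had an index of 0.674 to 0.722 with the lists with BRM and of 0.527 to 0.635 with those without BRM. The number of reads is unknown for every list, and a region absent from a list is a region that was not called, not a region shown to be free of SYD.

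Loss of regions was more frequent than gain. A region is here a stretch of merged peaks that holds a peak of both lists of a line. Of the 13753 regions with BRM, 10805 (78.6%, Wilson 95% interval 77.9% to 79.2%) also had a peak in both lists without BRM. Another 1653 (12%) had a peak in 1 of them and 1295 (9.42%, interval 8.94% to 9.92%) in neither, and these last are called lost. Of the 12566 regions without BRM, 11391 (90.6%) had a peak in both lists with BRM, 775 (6.17%) in 1, and 400 (3.18%, interval 2.89% to 3.50%) in neither, and these are called gained. The intervals cover counting error over regions only.

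Single peaks were also missing between replicate lists of a line. With BRM, 12.5% of the peaks of list 3 and 10.2% of list 4 were missing from the replicate list. Without BRM these shares were 20.8% of list 1 and 6.73% of list 2. Of the peaks of lists 3 and 4, 17.5% and 16.9% were missing from list 1 without BRM, and 26.2% and 25.4% from list 2. Shares by single peaks thus overlapped within and between lines. The other lists named SYD-N-GFP syd-5 gave the turnover between further lists of like genotype. Of the regions with BRM, 1.65% had no peak in either of these lists, against 9.42% in the lists without BRM. Of the 14462 regions of these other lists, 5.90% had no peak in either list with BRM compared here and 12.8% had none in either list without BRM. These other lists covered 15.7 and 17.8 Mb, more than the lists with BRM compared here and than the 12.3 and 10.2 Mb of those without, and a longer list leaves fewer regions without a peak; the part of list length in these shares was not tested. Their peak names also follow another pattern. The loss without BRM was above both values between lists of like genotype. The gain of 3.18% lay between them, and only 1.98% of the regions without BRM lacked a peak in the other SYD-N-GFP syd-5 lists. Requiring an overlap of 50% of both regions raised the shares lost and gained to 20.6% and 11.6%, and leaving out list 1 without BRM gave 19.2% lost and 5.10% gained. Leaving out list 3 or 4 with BRM gave 14.2% and 14.6% lost and 6.71% and 5.83% gained, and leaving out list 2 without BRM gave 11.6% lost and 8.48% gained.

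**Figure D1:**
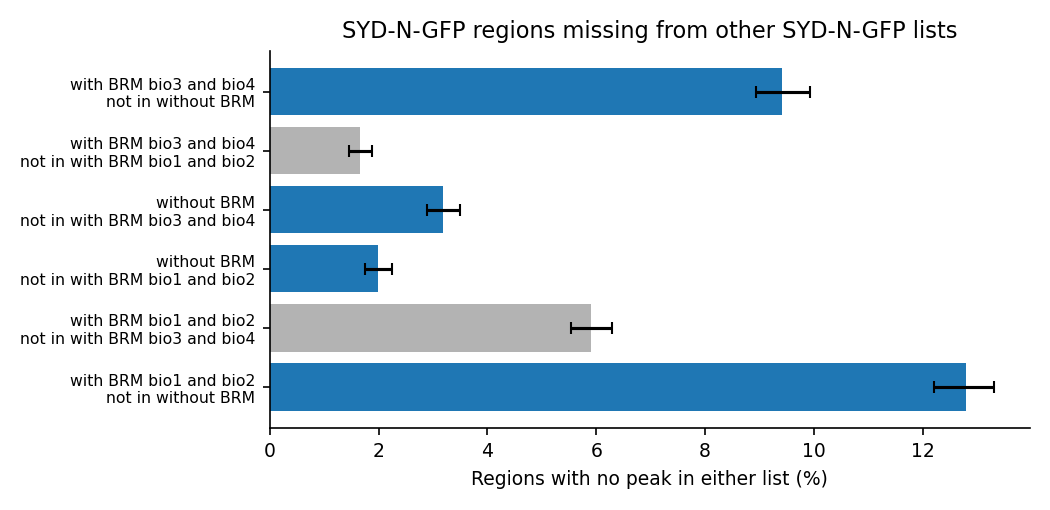
Share of regions of a pair of SYD-N-GFP lists, in percent, that had no peak in either list of another pair; bars of lists that differ in BRM are blue, bars of lists named for the same line are grey, and error bars are Wilson 95% intervals. Regions with BRM were absent from the lists without BRM in 9.42% and 12.8% of cases, and from each other in 1.65% and 5.90%.

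Lost and gained regions were weak in the lists that held them. Strength is given as the percentile of the −log10 q of a peak within its own list, where 100 is the strongest. Lost regions had a median percentile of 22.7 and 22.3 in the lists with BRM, and 1186 of 1295 (91.6%) had a mean percentile under 50. Gained regions had a median of 24.8 and 18.3 in the lists without BRM, and 366 of 400 (91.5%) lay under 50. The authors' median fold enrichment was 2.34 and 2.39 at lost regions and 2.45 and 2.47 at gained regions. Median widths were 404 and 393 bp at lost and 382 and 329 bp at gained regions, against 783, 753, 697 and 601 bp at the regions shared by all 4 lists. Among regions with BRM, the share lost fell from 35.0% under percentile 20 to 0.162% from percentile 80 to 100.

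BRM itself was found at most lost regions and at few gained ones. BRM regions are those with a peak of both lists of BRM-GFP brm-1, a line in which tagged BRM replaces the mutated gene and in which label and file name state the same line. They included 993 of 1295 lost regions (76.7%, Wilson 95% interval 74.3% to 78.9%), 71 of 400 gained regions (17.8%, interval 14.3% to 21.8%) and 9373 of 10667 shared regions (87.9%, interval 87.2% to 88.5%). Counting a peak of either BRM list gave 86.4% of lost, 30.2% of gained and 93.5% of shared regions. Counting only BRM peaks with a −log10 q of at least 10 left 3.0% of the gained regions, and an overlap of 50% left 10.8%. The gained regions were therefore mostly not called as BRM sites, with 279 of 400 (69.8%) lacking a peak in both BRM lists.

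The low share of BRM regions among gained regions was also seen when regions of like strength were set side by side. Between percentiles 20 and 40 of the lists without BRM, 17.2% of 145 gained regions were BRM regions, against 72.7% of 2488 other regions. Between 40 and 60 the shares were 19.4% of 62 gained and 81.1% of 2785 other regions. Lost regions went the other way in these bands. Between percentiles 20 and 40 of the lists with BRM, 80.7% of 524 lost regions were BRM regions, against 69.6% of 2430 that were not lost. Between 40 and 60 the shares were 91.2% of 171 lost and 86.1% of 2850 others.

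Not every gained region was new to SYD. Of the 400, 285 (71.2%) had a peak in at least 1 of the other lists named SYD-N-GFP syd-5, and 61 of these (21.4%) were BRM regions. The remaining 115 had no peak in any of the 4 lists of that name, and 10 of them (8.70%) were BRM regions. Of the lost regions, 1193 (92.1%) had a peak in at least 1 of those other lists and 992 (76.6%) in both. Of these 992, 828 (83.5%) were BRM regions.

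The other tagged subunits separated lost from gained regions to different degrees, by file name and with 1 to 3 lists per line. SWI3C, a subunit of BRM complexes, had a peak at 40.4% of lost and 12% of gained regions. SWP73A had a peak at 25.1% of lost and 2.75% of gained regions. The lists of the MINU2 complex were closer to even: both MINU2 lists had a peak at 50.3% and 53.9% of lost and 44.2% and 47.0% of gained regions, and the SWI3A list at 54.5% and 48.5%. At shared regions SWI3C, SWP73A and SWI3A had a peak at 79.5%, 61.8% and 81.2%. These lists come from libraries of other sizes, and 12 of the 26 lists hold organelle peaks, those of MINU2, SWI3A, SWI3C and SWP73A included, while the 4 SYD lists and the BRM lists hold none; the part of this difference in the shares was not tested.

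**Figure D2:**
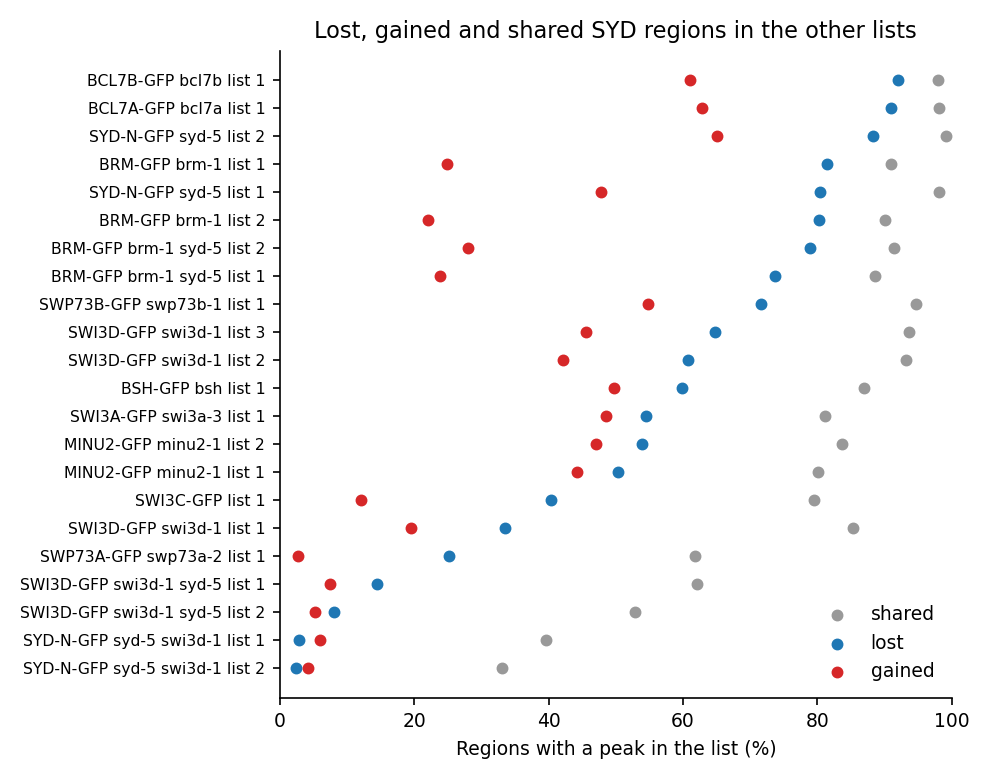
Share of shared, lost and gained SYD regions, in percent on the horizontal axis, that had a peak in each of the other 22 lists, which are named by line and number on the vertical axis. Lost regions lie at 81.5% and 80.2% in the BRM-GFP brm-1 lists, where gained regions lie at 24.8% and 22%.

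Lost regions lay inside genes more often than gained ones. The summit, averaged over lists, was inside a protein-coding gene at 780 of 1295 lost regions (60.2%), 124 of 400 gained regions (31.0%) and 3533 of 10667 shared regions (33.1%). Summits more than 1 kb from any protein-coding gene made up 8.80% of lost, 27.8% of gained and 15.6% of shared regions. Of all peaks, 41.2% and 40.4% had a summit inside a gene with BRM and 35.9% and 34.5% without, and the groups did not overlap. The other SYD-N-GFP syd-5 lists were at 41.1% and 41.5%. In the BRM-GFP brm-1 lists 69.1% and 68.0% of summits were inside genes. On chromosomes 1 to 5 the shares of lost and of gained regions were between 14.2% and 30.8% per chromosome, where shared regions ranged from 15.3% to 26.9%.

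The 6 strongest lost regions had BRM peaks in both BRM lists. The strongest, on chromosome 3 from 21134523 to 21137541 beside AT3G57110, was at percentile 90.5 and 90.6 with BRM, with fold enrichments of 6.34 and 6.28, and had fold enrichments of 10.6 and 10.2 in the BRM lists. It was the single lost region with a mean percentile of at least 90. The next, on chromosome 5 from 3456898 to 3458028, lay within AT5G10946 and within 1 kb of MIR156d, a gene for the miRNA that holds plants in the juvenile phase, with fold enrichments of 5.22 and 5.44 with BRM. Neither had a peak in either list without BRM, and both had peaks in both of the other SYD-N-GFP syd-5 lists.

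The other 4 lay within genes. They were AT5G52450 (4.73 and 5.68 fold with BRM), PFA-DSP1, which encodes an atypical dual-specificity phosphatase (4.93 and 5.14 fold), ACC1, which encodes acetyl-CoA carboxylase of fatty acid synthesis (4.83 and 5.08 fold), and AT1G75180 (4.44 and 4.90 fold). The ACC1 region had BRM fold enrichments of 7.39 and 7.11. All 6 were between percentile 76.2 and 90.6 in the lists with BRM.

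Of the 6 strongest gained regions, 5 had no peak in either BRM list and 1 had a peak in a single BRM list. The strongest, on chromosome 1 from 8492955 to 8493481 near the pseudogene AT1G23990, had fold enrichments of 5.07 and 6.07 without BRM. The next, on chromosome 2 from 915557 to 915978, had 4.53 and 4.30 and no annotated gene within 1 kb. The region on chromosome 3 from 9624554 to 9624985, near the pseudogene AT3G26265, had 4.69 and 4.09 and no peak in any of the 4 SYD-N-GFP syd-5 lists. A single region of the 6, on chromosome 5 from 4961291 to 4962295, had its summit inside a gene, AT5G15270, with 5.13 and 3.74 fold. The remaining pair, on chromosome 1 from 24768884 and from 21724712, had no annotated gene within 1 kb. Of the 6, only the region near AT3G26265 had no peak in the other SYD-N-GFP syd-5 lists. In 1 of those lists the region from 24768884 had 7.80 fold and the chromosome 2 region 2.11 fold. The region near AT1G23990 had a peak at percentile 42.4 in 1 of them. Both lists had a peak within AT5G15270 (2.01 and 1.99 fold) and at the region from 21724712 (2.59 and 2.18 fold). All 6 gained regions were between percentile 59.3 and 85.6 without BRM.

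At the 10667 regions with a peak of all 4 lists, the order of SYD peaks by strength was largely kept. Spearman's rho of the −log10 q across these regions was 0.913 between the lists with BRM, 0.912 between those without, and 0.796 to 0.818 between lines. The regions are not independent replicates, and these values are descriptions. The median difference in percentile among shared regions was 6.52 between the lists with BRM, 6.35 between those without, and 8.79 between the means of the lines.

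Ranks were tested with limma on normal scores of the rank of −log10 q within each list, with Benjamini-Hochberg adjustment over all 10667 regions. The rank fell without BRM at 769 regions (7.21% of those tested) and rose at 720 (6.75%). Ranks are relative, so a fall at some regions brings a rise at others, and neither count says whether the absolute amount of SYD changed. At the regions that fell the median change was -29.6 percentiles, and at those that rose it was 27.7. The number of changed regions, 1489, was 701 (289 fell, 412 rose) without list 3 with BRM and 572 (221 fell, 351 rose) without list 4. It was 1032 (640 fell, 392 rose) without list 1 without BRM and 709 (483 fell, 226 rose) without list 2, so the balance of falls and rises turned either way with the list left out. All 4 lists named SYD-N-GFP syd-5 gave 877 falls and 588 rises, and ranks on a percentile scale gave 870.

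**Figure D3:**
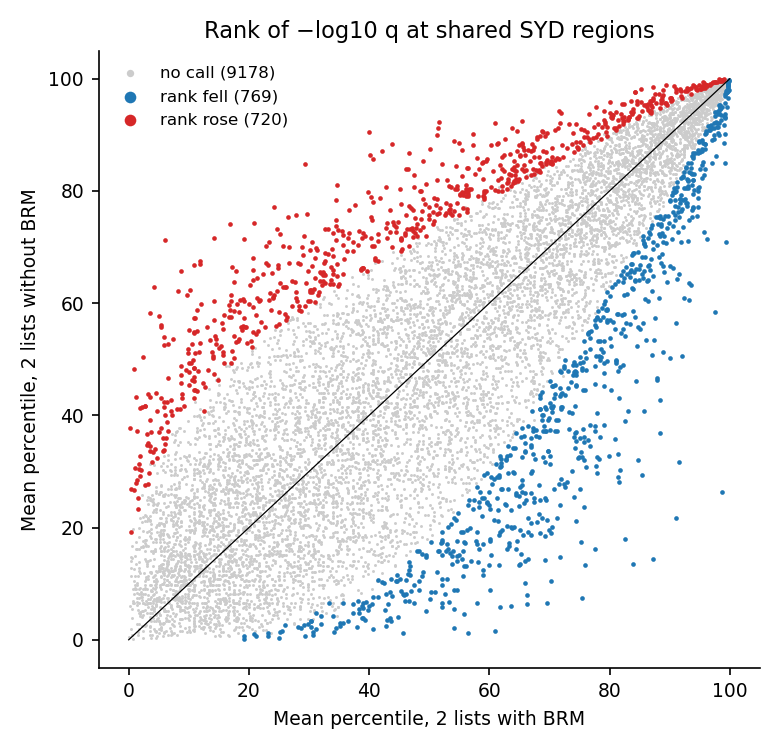
Mean percentile of −log10 q at the 10667 shared regions, over the 2 lists with BRM on the horizontal axis and the 2 without BRM on the vertical axis; each point is a region. The 769 regions whose rank fell are blue, the 720 whose rank rose are red, regions with no call are grey, and the line marks equal ranks.

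Regions whose rank fell were wide and strong with BRM. Their median fold enrichment was 5.12 and 5.14 with BRM and 3.55 and 3.39 without, and their median width was 1097 and 1068 bp with BRM and 697 and 585 bp without. Regions whose rank rose went from 3.58 and 3.59 fold to 5.56 and 5.43 fold, and from 664 and 646 bp to 809 and 718 bp. Fold and width come from the same peaks as the rank that chose these regions and are therefore a description. The other SYD-N-GFP syd-5 lists, which the fit did not use, share the lists without BRM as their comparator, so values are given side by side. Over the 10442 regions with a peak of all 6 lists, the 764 fallen regions among them had median percentiles of 74.5 and 76.2 in the lists with BRM, 71.1 and 71.6 in the other SYD-N-GFP syd-5 lists, and 42.5 and 40.3 without BRM. The 705 risen regions had 47.5 and 47.5, then 54.7 and 54.9, and 76.0 and 77.2 without BRM.

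**Figure D4:**
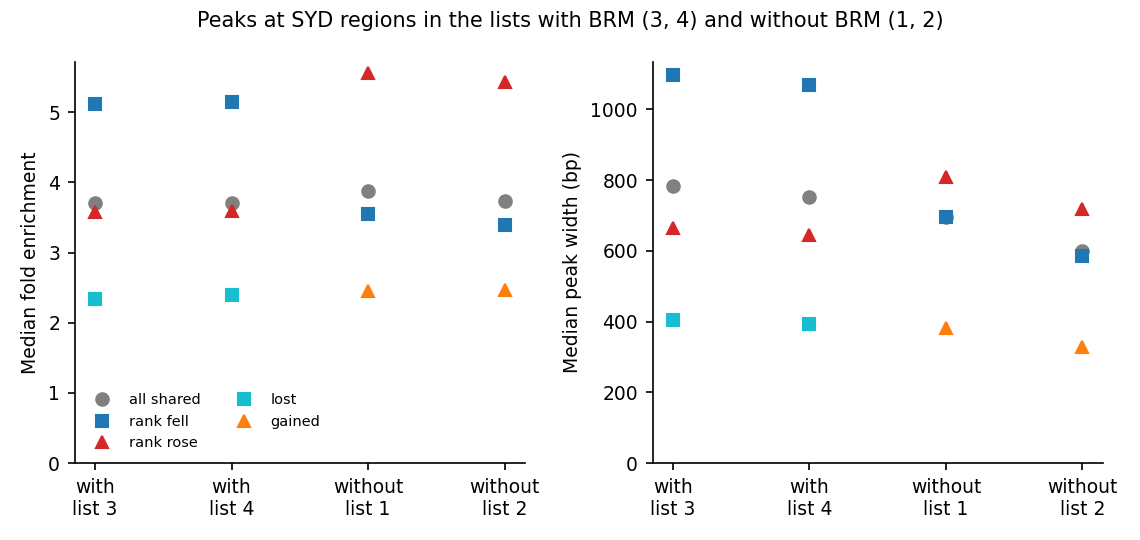
Median fold enrichment (left) and median peak width in bp (right) of the peaks at shared, lost and gained regions and at shared regions whose rank fell or rose, in each of the 4 lists; each point is the median of a list. Fallen regions go from 1097 and 1068 bp with BRM to 697 and 585 bp without.

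Nearly all regions whose rank fell were BRM regions, 761 of 769 (99.0%, Wilson 95% interval 98.0% to 99.5%), against 589 of 720 (81.8%, interval 78.8% to 84.5%) of those whose rank rose and 87.9% of all shared regions. Strong SYD regions were BRM regions in any case: between percentiles 60 and 80 with BRM, the share was 99.6% of fallen, 95.6% of risen and 97.8% of other regions. In weaker bands the shares lay further apart. Between 20 and 40 they were 97.8% of 46 fallen, 80.4% of 148 risen and 83.9% of 2095 other regions. Under 20 they were 50.9% of 169 risen and 65.4% of 1876 other regions, with only 2 fallen regions. The position relative to genes differed more, over all shared regions and in the bands from percentile 20 up. The summit lay inside a protein-coding gene at 474 fallen regions (61.6%) and at 138 risen regions (19.2%), against 33.1% of all shared regions. Between percentiles 60 and 80 these shares were 64.7% of fallen, 18.2% of risen and 32.5% of other regions, and from 80 to 100 they were 61.6%, 14.8% and 25.1%. Summits more than 1 kb from any protein-coding gene made up 5.85% of fallen and 29.3% of risen regions. SWP73A had a peak at 89.7% of fallen, 56.4% of risen and 61.8% of all shared regions, and SWI3C at 94.8%, 76.9% and 79.5%. The share was higher at fallen than at risen regions in every list other than those compared here. Examples are MINU2 (88.9% and 91.7% against 71.2% and 77.2%), SWI3D-GFP swi3d-1 syd-5 (83.4% and 75.2% against 57.9% and 48.8%) and BSH (94.8% against 81.5%). Fallen regions were also stronger with BRM, with median percentiles of 83.1 and 84.0 against 63.5 and 62.1 at risen regions. The part of strength in the shares of these other lists was not tested.

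When the shared regions were ordered by their change in rank and divided into 10 groups of like size, the share of BRM regions went from 98.1% in the group that fell most to 72.1% in the group that rose most. The share with a summit inside a gene went from 56.9% to 20.7%. The groups also differed in strength with BRM, with a median percentile of 57.4 in the first and 25.9 in the last. Regions of low rank can rise further than fall, and the part of this in the trend was not tested.

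**Figure D5:**
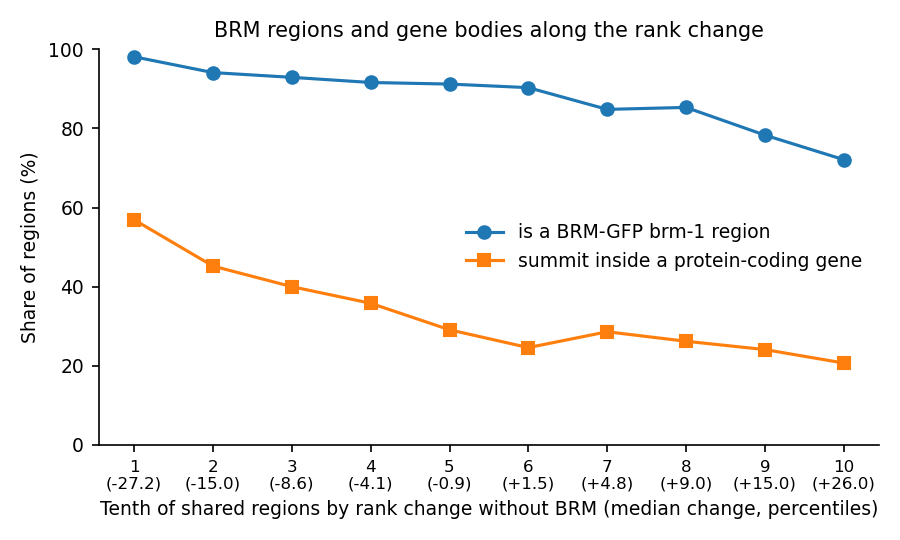
Share of shared regions, in percent, that were BRM-GFP brm-1 regions (circles) and that had their summit inside a protein-coding gene (squares), in 10 groups of like size ordered by the change in rank without BRM; the median change in percentiles stands under each group. The shares go from 98.1% to 72.1% and from 56.9% to 20.7%.

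Among the 8 regions with the greatest fall in rank, HA1, which encodes a plasma membrane proton pump, had the highest peaks. Its region on chromosome 2 from 8221552 to 8223535 had fold enrichments of 11.2 and 11.4 with BRM and 2.89 and 3.03 without. Its width went from 1755 and 1943 bp to 322 and 260 bp, and its score fell by 2.89 ± 0.17 (SE; limma, adjusted p = 6.30e-14). BRM-GFP had 10.4 and 10.8 fold there. SPL2, a transcription factor gene that is a target of miR156, went from 6.24 and 5.56 fold to 2.89 and 2.54 fold on chromosome 5 from 17362808 to 17364326 (adjusted p = 7.11e-06, limma). These are the strongest peaks of each list in the SPL2 region, and they were not at 1 position. Their summits were at 17363193 and 17363777 with BRM and at 17363900 and 17364135 without. The rule that chose these regions required ranks that did not overlap between the lines. Among all 10667 shared regions, both ranks without BRM lay below both with BRM at 2963 and above both at 3048.

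The greatest fall, of 72.8 percentiles by the mean of the lists, was within AT5G52882, where fold enrichments of 6.0 and 7.11 stood against 2.35 and 2.82 without BRM. AT1G53430 had 6.93 and 7.53 fold with BRM and 3.05 and 2.61 fold without. The remaining 4 were within AT5G53420 and AT1G72700, beside MEE16, and beside LHCB2.1, a light-harvesting chlorophyll-binding protein gene, with 5.37 and 5.02 fold against 2.24 and 2.82. All 8 had a peak in both BRM lists, and in all 8 the adjusted p (limma) was between 6.30e-14 and 1.25e-04. When all 4 lists named SYD-N-GFP syd-5 were merged, the AT1G72700 region of 903 bp was joined with a stronger neighbouring peak into a region of 4666 bp, so no value of this region alone was had there.

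Among the 8 regions with the greatest rise, no BRM peak exceeded 2.85 fold. The greatest rise was on chromosome 3 from 2104835 to 2105621, between AT3G06660 and AT3G06670, with fold enrichments of 2.44 and 2.09 with BRM and 4.69 and 5.50 without (score change 2.22 ± 0.35, SE; limma, adjusted p = 6.79e-05). BRM-GFP had 2.25 and 2.53 fold there. The region beside LOL1 on chromosome 1 from 11770149 to 11770879 had 2.34 and 2.45 fold with BRM and 4.58 and 4.73 without. The region at MIR773a had 3.17 and 2.87 fold with BRM and 8.29 and 5.64 without, and a BRM peak in 1 of the 2 lists. The regions beside PGSIP7 and within AT3G42570 had no BRM peak in either list. The rest were beside AT1G30340, at AT3G03655, and on chromosome 5 from 7112968 with no annotated gene within 1 kb. The rule that chose these 8 also required ranks that did not overlap between the lines compared. Beside AT1G30340 the other SYD-N-GFP syd-5 lists had 3.96 and 5.38 fold, which overlapped the 5.67 and 5.01 fold without BRM.

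The 4 strongest shared regions were at the top of the percentile scale in all 4 lists by the way they were chosen, so their ranks could hardly move and are not read here. On chromosome 5 from 3782610 to 3786084, at AGP15, a gene for an arabinogalactan cell-wall protein, fold enrichments were 17.5 and 15.5 with BRM and 22.3 and 19.7 without. On chromosome 1 from 1952432 to 1955079, near TPS7, of the trehalose phosphate synthase family, they were 16.5 and 16.1 against 22.3 and 21.3. In the 4 lists compared, the fold enrichments with and without BRM did not overlap at either region. The other SYD-N-GFP syd-5 lists had 19.1 and 18.5 fold at AGP15. Near TPS7 they had 20.4 and 23.1 fold, which overlapped the values without BRM. The first and second by −log10 q, on chromosome 3 from 13591203 and chromosome 4 from 3952147, had fold enrichments of only 1.53 to 1.86 and no annotated gene within 1 kb. Peaks of under 2-fold among those at or above percentile 90 numbered 14 to 18 in each of the 4 lists and 0 in the BRM lists and the other SYD-N-GFP syd-5 lists. Both lines compared held them in like number.

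Peaks at shared regions were narrower without BRM. Their median width was 783 and 753 bp with BRM and 697 and 601 bp without, and the groups did not overlap (log2 ratio of the means -0.24; exact two-sided permutation p = 0.333, the smallest possible). Both widths without BRM were below both with BRM at 4120 shared regions (38.6%) and above both at 1195 (11.2%). With an overlap of 50% of both required, the log2 ratio was -0.09, and without list 2 without BRM it was -0.14.

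The position of the summit was nearly the same. The median distance between summits was 42.0 bp between the lists with BRM and 41.0 bp between those without, and 43.0 to 46.0 bp between lines. Summits that lay within 100 bp of each other in each line and more than 200 bp apart between lines were found at 202 shared regions (1.89%), and at 22 of 769 regions whose rank fell (2.86%).

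In 6 lists of genes named by function, 33 of 64 genes had a shared region within their body or 1 kb. Of 45 shared regions at these genes, the rank fell at 7 (15.6%) and rose at 5 (11.1%), beside 7.21% and 6.75% of all shared regions. Of the 7 genes of auxin transport and root stem cells, 4 had a shared region, all of them of the PIN family of auxin efflux carriers. At 3 of these, PIN3, PIN4 and PIN7, a region had a rank that fell. EIR1 did not pass the test (adjusted p = 0.601, limma). Of the 9 shared regions of this list, the rank fell at 4 and rose at 0. The gene lists were chosen with earlier results of these data known, so these counts are a description. At PIN4 a region within the gene went from 4.49 and 4.18 fold with BRM to 3.0 and 2.33 without (limma, adjusted p = 0.00346), and a second from 7.61 and 5.68 to 5.73 and 4.87, where the folds overlapped although the ranks did not (adjusted p = 0.0391, limma). At PIN7 fold enrichments were 9.51 and 8.13 against 6.71 and 6.42 (adjusted p = 7.74e-04, limma). At PIN3 they were 7.42 and 8.37 against 7.69 and 6.0 and overlapped, although the ranks did not (adjusted p = 0.0355, limma). All 4 fallen regions lay within the genes and were BRM regions.

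Of the 14 flowering and floral organ genes, 10 had a shared region. At SVP, which encodes a MADS-box repressor of flowering, fold enrichments of 4.68 and 3.88 with BRM stood against 2.40 and 2.19 without, and widths of 1785 and 2058 bp against 366 and 316 bp (limma, adjusted p = 6.12e-04). At AP2, a floral identity gene that also delays flowering, they were 4.88 and 3.53 against 3.11 and 2.68 (adjusted p = 0.0298, limma). At a region outside genes and within 1 kb of both AGL6 and AGL20, the latter also called SOC1, a MADS-box activator of flowering, the rank rose, from 4.34 and 3.23 fold to 6.33 and 6.0 (adjusted p = 0.00374, limma). At FLC, the repressor that vernalization silences, they were 3.90 and 3.35 against 4.53 and 4.02 (adjusted p = 0.379, limma). AP1, AP3, SEP3, LFY, CO and AGL8 did not pass the test, with adjusted p (limma) from 0.0954 to 0.808.

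Of the 21 SWI/SNF subunit genes, 10 had a shared region. At the BRM gene SYD was found in all 4 lists, with 6.34 and 6.22 fold with BRM and 7.25 and 6.56 without (limma, adjusted p = 0.970). The rank rose at a region outside genes and within 1 kb of both BSH and IAA31. Fold enrichments there were 2.34 and 2.87 against 3.98 and 3.74 (adjusted p = 0.0277, limma). It also rose within AT5G55210, with 2.38 and 3.11 against 4.42 and 5.29 fold (adjusted p = 0.00225, limma). AT5G55040 had a region that rose and a region that fell. A weak region was gained outside genes, within 1 kb of both AT5G19300 and CHR23, which encodes MINU2, with 2.29 and 2.19 fold. Another was gained within ARP4, with 2.40 and 2.68 fold, and a weak region was lost at AT1G20670. Only the CHR23 region was without a BRM peak among these last.

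Of the 9 meristem and boundary genes and the 8 abscisic acid and seed genes, 3 each had a shared region. The rank changed at none of these 6 genes by limma at an adjusted p of 0.05. An unadjusted limma p under 0.05 was had by 1 of 4 shared regions of the first list and 1 of 3 of the second. Over all 10667 shared regions it was had by 2996, so these counts are not read as change. With 1 region taken per gene, which leaves out 1 of the 2 at KNAT6, the smallest adjusted p (limma) was 0.0972. It was at HAB1, which encodes a phosphatase of abscisic acid signalling. Of the 5 jasmonate and defence genes, 3 had a shared region, and the rank rose at VSP2, a jasmonate-responsive gene, from 2.44 and 2.45 fold to 3.71 and 3.53 (adjusted p = 0.0288, limma), with no BRM peak there.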

How the data were processed

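ChIP-seq peak lists of 14-day-old seedlings were used as deposited, 1 per library and none pooled. Each has 10 columns. Reads were processed with fastp, Bowtie2, MACS2 2.0, deepTools and ChIPseeker against TAIR10, per the submitters' processing notes; the control is not given in the sources used here. Per peak, the deposited columns give fold enrichment as a ratio on a linear scale, a −log10 of the p-value and of the q-value, and a score that follows the latter. They also give the offset of the summit. Every list holds peaks with a q below about 0.05 (−log10 q above 1.301). Lists hold no read numbers, so depth is unknown. Whether the lists of a line come from separate sowings is not given, so p-values speak of these libraries only. The limma p-values also draw on a variance moderated over all 10667 shared regions. A small limma p therefore does not measure the spread of the 4 lists at that region alone.

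Peaks on the 5 nuclear chromosomes were merged when they shared 1 bp. Each region took the strongest peak of each list. Ranks were fitted with limma 3.58.1 (R 4.3.3) with a trend, at an adjusted p of 0.05; other steps used Python 3.11.15. The scripts were tested on simulated data. Named regions are the 6 strongest lost and gained, the 4 strongest shared, and the 8 with the greatest change in rank each way. Members and gene lists were chosen with earlier results of these data known. Positions are as deposited, counted from 1. Gene names came from the RefSeq table of TAIR10.1, which gives no strand, so a gene was assigned within its body or 1 kb of either end, where the plan named its start. The median distance from summits to the nearest gene edge was 138 to 234 bp at both ends of every chromosome, and 685 to 732 bp after a shift of 1 kb. Sequences and motifs were not analysed here. Alternatives were a 50% overlap, a −log10 q of at least 10, equal numbers of peaks, all 4 lists named SYD-N-GFP syd-5, the reading by label, each list left out, ranks by fold or percentile, and the replicate number as a block. There were 0 columns of unmapped samples.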

Additional observations from a re-analysis of the deposited data

How the results depend on the processing

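The direction of width was kept under every alternative run for it. The log2 ratio of covered length, -0.30, was -0.01 by the sample labels (exact permutation p = 0.933), where the difference is nearly gone, and -0.44 to -0.17 otherwise; the share lost exceeded the share gained under all except the reading by sample label. The log2 ratio of peak numbers was -0.10 and turned to 0.07 by that reading, which compares lists named in part for other subunits; without single lists it ranged from -0.20 to -0.0012. The share of regions lost, 9.42%, was 20.6% with 50% overlap, 10.3% with a −log10 q of at least 10, 7.80% with the 14047 strongest peaks of each list, 6.92% with all 4 lists named SYD-N-GFP syd-5, 0.223% by label, and 11.6% to 19.2% without single lists. The share gained, 3.18%, was 11.6%, 5.16%, 4.46%, 0.915% and 0.536% under the same alternatives and 5.10% to 8.48% without single lists. Fewer lists loosen what counts as a region of a line, and more lists tighten it; other causes were not tested. The share of gained regions that are BRM regions, 17.8%, was 10.8% with 50% overlap, 3.0% with BRM peaks of a −log10 q of at least 10, 30.2% with either BRM list, 22% to 24.8% without a BRM list, and 8.70%, chosen after seeing the data, for gained regions absent from all 4 lists named SYD-N-GFP syd-5. The 1489 regions with a changed rank became 870 with percentile ranks, 885 with a −log10 q of at least 10 and 572 to 1032 without single lists, where a lone list was assumed to vary like the other line. The median summit distance of 44.5 bp became 35.8 bp with a −log10 q of at least 10.

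With the replicate block 1692 ranks changed (819 rose, 873 fell), and all 1489 were among them. This block paired list 3 with list 1 and list 4 with list 2, by the replicate numbers of the sample labels. The deviations of the paired lists correlated at 0.00866 over the shared regions. This single correlation cannot show whether the lists were prepared in pairs. The 16 regions named for rank were chosen for the greatest changes in these lists, and every repeat used lists of the same comparison again. Keeping direction was thus nearly fixed by the choice and is no independent check. Of 128 repeats for the 16 regions, 127 kept direction. The other, 0.14 at AT1G72700 with all 4 lists named SYD-N-GFP syd-5, belongs to a region of 4666 bp that the merge joined with a stronger neighbouring peak, not to the 903 bp region itself. None of the 16 could be repeated at a −log10 q of at least 10. Depth is unknown, so weak regions lost or gained cannot be told apart from differences in yield between libraries.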
